A study of Mus musculus with 10 samples.

Results

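Hopx, Bmi1, Lrig1, Krt19, Clu, Mex3a, Msi1, Ly6a and Anxa1 are 9 genes that have been proposed, in different studies of mouse intestine, to mark reserve stem cells or the epithelium that regrows after damage. They were taken by name from the 35006 gene names counted in each library, by a rule that uses no measured value though earlier results of these data were known, and the question asked of them was whether the proposed markers follow each other over 5 sorted crypt populations. The 9 markers did not follow 1 pattern. Hopx, Lrig1 and Msi1 were each higher in the libraries labelled P2 than in P1, Krt19 went the opposite way to Hopx and Msi1 between the libraries labelled P2 and P3, Bmi1 passed the threshold of edgeR in no pair of populations, Clu and Mex3a were low, Ly6a was close to 0 and Anxa1 had no read in any library.

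The libraries were poly(A) RNA-seq of crypt cells from the small intestine of C57BL6/J EF1a-OSCAR mice, whose age is not given in the sources used here. OSCAR is a ratio reporter for CDK9, the kinase that phosphorylates serine 2 of the RNA polymerase II tail: a Venus protein that carries a CDK9 substrate loses fluorescence when it is phosphorylated and is read against mCherry, so that a high ratio reports low kinase activity. The transgene was placed at Rosa26 under an EF1a promoter, its stop cassette had been removed through Vasa-Cre, and all 5 populations carried it. Live EpCAM+ cells were sorted by the OSCAR ratio and by EF1a-driven fluorescence into P1 (OSCARlow EF1alow), P2 (OSCARhigh EF1alow), P3 (OSCARlow EF1ahigh), P4 (OSCARmed EF1alow) and P5 (OSCARmed EF1ahigh), with 2 libraries each and 10 in all. The EF1a gate selects on the output of the same promoter in every cell, so it is a sorting gate and not a treatment. The study reports that P4 and P5 differ in cell cycle phase and P1 and P3 in lineage. An EF1a effect below is therefore a difference between sorted populations.

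The intestinal lining is renewed from crypts, where cycling Lgr5-positive crypt base columnar cells give rise to absorptive enterocytes and to secretory Paneth, goblet, tuft and enteroendocrine cells. Reserve stem cells are thought of as rarely dividing crypt cells that restore the lining when the Lgr5-positive cells are lost, and several of the genes proposed for them are also transcribed in Lgr5-positive cells or in secretory precursors. Regenerating epithelium is known for a fetal-like program in which Clu, Ly6a and Anxa1 are switched on. The RNA of a marker gene in a sorted pool is therefore a sum over all cell types in that pool.

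Each library held 3857612 to 6485823 reads counted on genes and detected 12694 to 17091 genes. Mitochondrially encoded genes took 59.2% and 36.1% of the counts of the P3 libraries, against 1.04% to 5.19% in the other 8. The libraries labelled P2 stood apart in their secretory genes. Compared with those labelled P3, 11 of 12 Paneth, 9 of 11 goblet, 10 of 14 enteroendocrine and 3 of 10 tested tuft genes were higher. No gene of these lists was lower past the threshold of edgeR. In this pair 10.5% of all tested genes were higher. The study's text assigns the secretory lineage genes to the gate it calls P3, which differs from these labels. It also places Krt19, and Hopx, Bmi1 and Lrig1, in the opposite gates of P2 and P3 to those found here under the labels. Proliferation genes summed to 148 and 117 CPM in the libraries labelled P2 and to 1075 and 1837 CPM in those labelled P3, where the study describes its P2 as non-cycling. Whether labels were exchanged was not tested. No library was renamed here. If the labels of P2 and P3 had been exchanged, those names and their gates would swap in every comparison below, and the sign of P2 against P3 would turn. The difference of the EF1a effect between low and medium OSCAR uses P3 and not P2. With exchanged labels it would no longer measure that difference. Genes of immune cells summed to 1224 and 423 CPM in the P1 libraries and to 14.9 to 193 CPM in the other 8, and genes of stroma and endothelium to 5.48 to 58.3 CPM in all 10, with Lum and Cdh5 at 0 in every library.

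**Figure D1:**
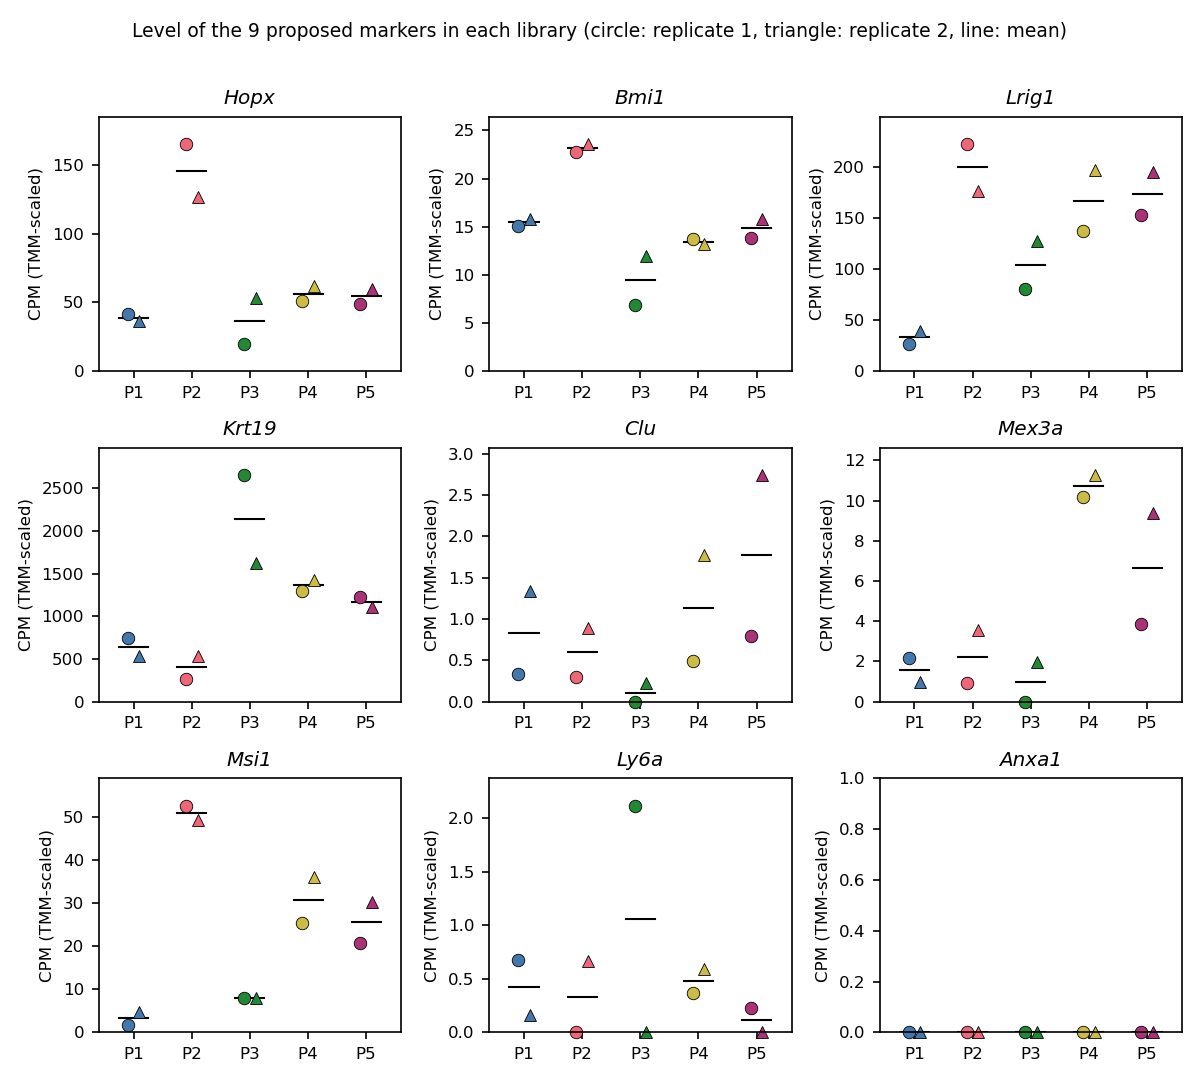
Level of each of the 9 genes in CPM (TMM-scaled; linear axes that start at 0 and differ between panels) over the populations P1 to P5; a circle is replicate 1, a triangle replicate 2 and the line their mean (n = 2). Hopx, Bmi1, Lrig1 and Msi1 had their highest mean in P2, Krt19 in P3, Mex3a in P4 and Clu in P5, and Anxa1 was at 0 throughout.

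CPM is a gene's count relative to its library's reads on tested genes times a TMM factor. That factor sets the libraries on a common footing through the bulk of their genes. It ran from 0.49 (P3 replicate 1) to 1.56 (P4 replicate 2), so a CPM is not a share of the counted reads. Tests were made with edgeR on all 10 libraries, and a gene was called when its p adjusted over the 13708 genes tested was under 0.01. 7 of the 9 markers had enough reads to be tested. 4 of these 7, Hopx, Lrig1, Krt19 and Msi1, were called in the test for any difference among the 5 populations (adjusted p = 0.0058, 0.00144, 0.00668 and 0.00074), where 36.3% of all tested genes were called. Mex3a, Bmi1 and Clu were not (adjusted p = 0.0354, 0.0471 and 0.342). Over the 10 pairs of populations, 11 of 70 member tests were called: 4 each for Lrig1 and Msi1, 2 for Hopx, 1 for Krt19 and 0 for Bmi1, Mex3a and Clu. Over all tested genes 13.9% of the tests in these pairs were called, which is near the share of the markers. In sorted pools, fewer cells of a type and less RNA per cell cannot be told apart, and this holds for each difference given here.

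Per length of transcript the markers spanned a wide range. Krt19 was the most abundant, at 144 to 1433 RPKM (CPM per kilobase of exon) over the 10 libraries, followed by Hopx at 9.32 to 78.8 RPKM, Lrig1 at 4.81 to 39.9 RPKM, Msi1 at 0.291 to 9.07 RPKM and Bmi1 at 1.73 to 5.93 RPKM. Mex3a reached 1.95 RPKM at most, Ly6a 2.58 RPKM and Clu 0.799 RPKM.

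Hopx encodes a small homeodomain protein that does not bind DNA itself and acts with other transcription factors. Its level was 165 and 127 CPM in the libraries labelled P2, 50.9 and 61.9 CPM in P4, 49.1 and 59.6 CPM in P5, 41.2 and 36.2 CPM in P1, and 19.6 and 53.3 CPM in P3. Both P2 libraries lay above the other 8, the P1 libraries lay below those of P4 and P5, which overlapped, and the P3 pair held the lowest library of all beside a library at the level of P4. Hopx was higher in P2 than in P1 by 1.91 on the log2 scale (SE 0.38, adjusted p = 0.00344) and higher in P2 than in P3 by 1.96 (SE 0.39, adjusted p = 0.00426). Against P4 and P5 the difference was 1.37 (SE 0.37, adjusted p = 0.0228) and 1.42 (SE 0.37, adjusted p = 0.0185), which did not pass. In the order P2, P4, P5, P1, P3 no neighbours differed past the threshold. Hopx lies on the minus strand at chr5:77515468-77544186 of NCBIM37 (mm9), and 19.5% of its exon bases are shared with the opposite-strand gene Gm15830. Reads were counted without strand, so that share cannot be assigned to either gene.

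Bmi1 encodes a subunit of Polycomb repressive complex 1, which keeps genes silent through histone H2A ubiquitination. Bmi1 was at 22.8 and 23.6 CPM in P2, 15.0 and 15.8 CPM in P1, 13.8 and 15.8 CPM in P5, 13.7 and 13.2 CPM in P4, and 6.88 and 11.95 CPM in P3. The P2 libraries were the highest 2 and the P3 libraries the lowest 2 of the 10, yet the whole range over population means was 2.46-fold. The largest difference, P2 over P3 by 1.25 on the log2 scale (SE 0.31, adjusted p = 0.0117), missed the threshold in edgeR, but was called by DESeq2 (1.31, adjusted p = 0.00254), by edgeR without the filter on low counts (1.28, adjusted p = 0.00943) and by edgeR without P3 replicate 2 (1.73, adjusted p = 0.00514). In edgeR no neighbours in the order P2, P1, P5, P4, P3 differed. The gene occupies chr2:18598645-18608256, plus strand, and shares no exon bases with another gene.

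Lrig1 encodes a transmembrane protein that restrains ErbB receptor signalling. It was at 223 and 177 CPM in P2, 153 and 195 CPM in P5, 138 and 197 CPM in P4, 80.9 and 127 CPM in P3, and 26.9 and 39.0 CPM in P1. The P1 libraries were the lowest of the 10, while P2, P4 and P5 overlapped. Lrig1 was lower in P1 than in each of the other populations: P2 exceeded P1 by 2.60 on the log2 scale (SE 0.33, adjusted p = 0.000485), and P1 minus P3 was -1.67 (SE 0.32, adjusted p = 0.00508), P1 minus P4 -2.35 (SE 0.32, adjusted p = 0.00125) and P1 minus P5 -2.40 (SE 0.32, adjusted p = 0.00154). These 4 comparisons share the P1 libraries. In the order P2, P5, P4, P3, P1 the neighbours P3 and P1 were the only ones to differ past the threshold. P2 minus P5 was 0.20 (SE 0.30, adjusted p = 0.666). The gene lies at chr6:94554523-94650152, minus strand, and 2.1% of its exon bases are shared with the opposite-strand gene Slc25a26.

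Msi1 encodes Musashi-1, an RNA-binding protein that regulates translation of its target mRNAs. Msi1 was at 52.6 and 49.2 CPM in P2, 25.5 and 36.0 CPM in P4, 20.8 and 30.3 CPM in P5, 7.93 and 7.97 CPM in P3, and 1.69 and 4.84 CPM in P1. Apart from P4 and P5, which overlapped, each population lay clear of the next. Msi1 had the largest called differences of any member: P2 exceeded P1 by 3.95 on the log2 scale (SE 0.45, adjusted p = 0.000357) and P3 by 2.67 (SE 0.43, adjusted p = 0.00158), and P1 minus P4 was -3.23 (SE 0.44, adjusted p = 0.0012) and P1 minus P5 -2.96 (SE 0.44, adjusted p = 0.00196). P1 minus P3 was -1.28 (SE 0.47, adjusted p = 0.062), and no neighbours in the order P2, P4, P5, P3, P1 differed past the threshold.

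Lrig1 and Msi1 were each called in P1 against P2, P4 and P5. The promoter of Lrig1, called in 4 pairs, is shown beside that of Krt19, which was highest in P3 where Lrig1 was highest in P2. Each sequence is the 250 bases before the annotated gene start in NCBIM37, read 5′ to 3′ on the strand of the gene, with capitals for a GC box (GGGCGG) or an E-box (CANCTG), each searched on both strands; the E-box of Krt19 is on the opposite strand. Lrig1 is at chr6:94650153-94650402 (minus strand, 70.8% G or C) and Krt19 at chr11:100009980-100010229 (minus strand, 43.2% G or C); no annotated exon overlaps these windows.
Lrig1: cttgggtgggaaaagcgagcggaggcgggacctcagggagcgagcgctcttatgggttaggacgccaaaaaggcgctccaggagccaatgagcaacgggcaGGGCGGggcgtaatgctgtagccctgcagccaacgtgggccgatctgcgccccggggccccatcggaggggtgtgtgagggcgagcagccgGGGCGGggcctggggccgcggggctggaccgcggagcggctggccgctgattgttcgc
Krt19: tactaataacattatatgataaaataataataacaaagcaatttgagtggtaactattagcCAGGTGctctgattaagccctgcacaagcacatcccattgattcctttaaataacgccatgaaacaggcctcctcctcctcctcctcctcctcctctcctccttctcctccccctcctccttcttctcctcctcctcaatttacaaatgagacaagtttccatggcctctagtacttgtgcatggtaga
A GC box lay in the windows of 4 of the 9 markers, Lrig1 among them, and in 39.6% of 22375 windows of the same length. The E-box letters CANCTG were found in 1 of 9, Krt19, and in 42.2% of all windows. Other forms of the E-box, such as CACGTG in the Bmi1 window, were not searched. The TCF/LEF letters CTTTGAA or CTTTGAT, which the Wnt pathway's factors recognise, were in 0 of 9 and in 7.13% of all windows. TATAAA was in 0 of 9 and in 12.3%, and the TEAD letters CATTCC were in 1 of 9, Bmi1, and in 11.4%. A match describes letters in this window and not a bound site.

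Krt19 (chr11:100002124-100009979, minus strand) encodes a type I keratin of simple epithelia. Krt19 was at 2658 and 1627 CPM in P3, 1299 and 1426 CPM in P4, 1224 and 1106 CPM in P5, 742 and 537 CPM in P1, and 267 and 539 CPM in P2. Both P3 libraries lay above all others, and the P1 and P2 libraries, which overlapped, lay below all others. P2 minus P3 was -2.41 on the log2 scale (SE 0.43, adjusted p = 0.00257), the 1 call for this gene in edgeR. P2 minus P4 was -1.76 (SE 0.42, adjusted p = 0.0134), P1 minus P3 -1.74 (SE 0.42, adjusted p = 0.0127) and P2 minus P5 -1.53 (SE 0.42, adjusted p = 0.0217), which all missed the threshold in edgeR and passed it in DESeq2 (adjusted p = 9.94e-06, 2.31e-05 and 0.000156). No neighbours in the order P3, P4, P5, P1, P2 differed. The position of P3 above P4 and P5 depends on the scaling: with library totals in place of TMM, Krt19 in P3 minus P4 was -0.55 and in P3 minus P5 -0.21, while the median over all genes shifted to -0.99 and -0.94.

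Mex3a (chr3:88336317-88345318, plus strand) encodes an RNA-binding protein with KH domains, reported in slowly cycling Lgr5-positive cells. Mex3a was at 10.2 and 11.3 CPM in P4, 3.88 and 9.40 CPM in P5, 0.912 and 3.56 CPM in P2, 2.20 and 1.001 CPM in P1, and 0 and 1.99 CPM in P3. The P4 libraries were the highest, and P1, P2 and P3 overlapped. P1 minus P4 was -2.73 on the log2 scale (SE 0.85, adjusted p = 0.0289) and did not pass in edgeR, nor did any other pair. DESeq2 called Mex3a in P1 against P4 (-2.75, adjusted p = 0.00744), as did edgeR without P3 replicate 1 or without P3 replicate 2 (adjusted p = 0.00978 and 0.00976). Without the filter on low counts edgeR called it in P1 against P4 and P5 (-2.80 and -2.08, adjusted p = 0.000117 and 0.00618), in P2 against P4 (-2.31, adjusted p = 0.0026) and in P3 against P4 (-3.18, adjusted p = 0.000554).

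Clu (chr14:66587320-66600385, plus strand) encodes clusterin, a secreted chaperone that marks a rare revival stem cell after damage. Clu had 71 reads in all 10 libraries together. It stood at 0.80 and 2.75 CPM in P5, 0.49 and 1.78 CPM in P4, 0.338 and 1.33 CPM in P1, 0.304 and 0.89 CPM in P2, and 0 and 0.221 CPM in P3. In 4 of 10 libraries it had 3 reads or fewer, and no pair was called (lowest adjusted p = 0.297).

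Ly6a (chr15:74825308-74828064, minus strand) encodes Sca-1, a surface protein held by a lipid anchor, and had 23 reads in all, with 0 in 3 of 10 libraries and at most 6 in any. Anxa1 (chr19:20447918-20465434, minus strand) encodes annexin A1, a calcium-dependent phospholipid-binding protein, and had 0 reads in each of the 10. Neither passed the filter on low counts. In edgeR without that filter Ly6a was called in no pair (adjusted p = 0.646 to 1), and Anxa1 could not be tested. A count of 0 allows up to 3 reads, which corresponds to 0.297 to 1.59 CPM depending on the library; this limit covers counting error only, and a level under it was not detectable at this depth. Reads that align to several places were not counted, so reads that Ly6a shares with closely related Ly6 genes would be missing from its count.

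**Figure D2:**
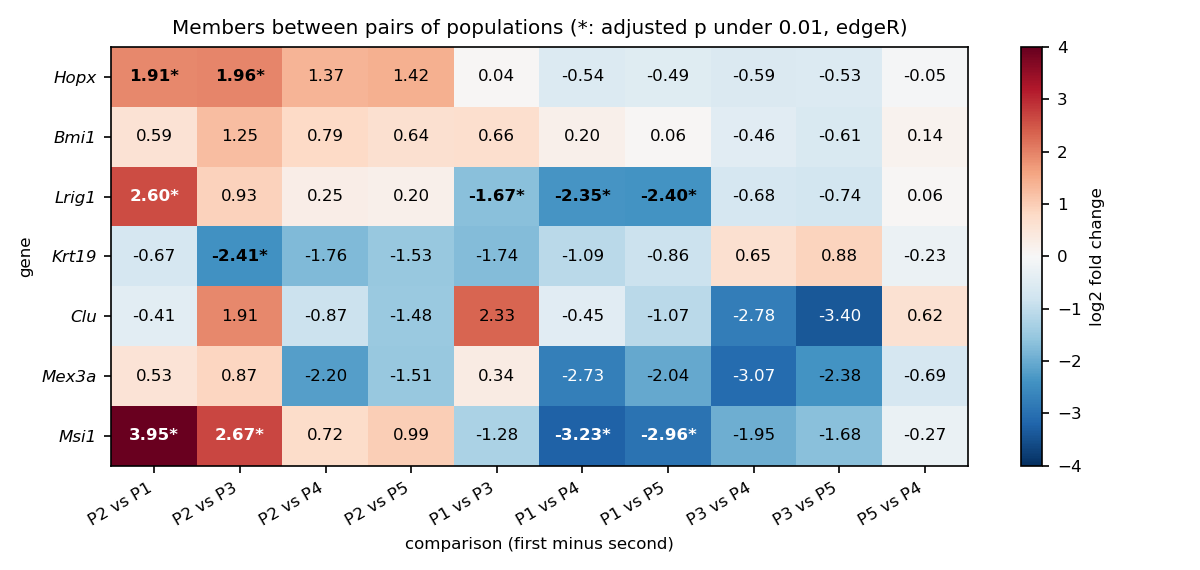
Log2 fold change (colour and number, first population minus second) of the 7 tested markers in each pair of populations, with an asterisk and bold type where the adjusted p of edgeR was under 0.01. The 11 calls fall in the 5 pairs P2 vs P1, P2 vs P3, P1 vs P3, P1 vs P4 and P1 vs P5; Krt19 and Msi1 were called in opposite directions in P2 vs P3.

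Between P2 and P1, which differ in the OSCAR ratio at low EF1a, 3 of 7 tested markers (Hopx, Lrig1 and Msi1) were higher in P2 and 0 were lower, where 29.1% of all tested genes were called, 13.9% higher and 15.2% lower. Bmi1 and Mex3a stood at 0.59 (SE 0.29) and 0.53 (SE 0.92) on the log2 scale, and Krt19 and Clu at -0.67 (SE 0.41) and -0.41 (SE 1.23), none of them called. The median of the 7 was 0.59 beside 0.01 over all genes. The Hopx call was lost without P1 replicate 1, P1 replicate 2 or P2 replicate 1 (adjusted p = 0.0223, 0.0281 and 0.0238) and with library totals (1.47, adjusted p = 0.0578). Lrig1 and Msi1 were called under each alternative tried in this pair.

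Between the libraries labelled P2 and P3, Hopx and Msi1 were higher in P2 and Krt19 was lower. Of all tested genes 21% were called here; 2 of 7 markers were higher against 10.5% of all genes, and 1 of 7 lower against 10.6%. Bmi1 (1.25) and Lrig1 (0.93, SE 0.31, adjusted p = 0.0408) did not pass. Msi1 was not called without P3 replicate 2 (adjusted p = 0.0104), Hopx without P2 replicate 1 or 2 (adjusted p = 0.0267 and 0.0117) or with library totals (1.73, adjusted p = 0.0442), and Krt19 without P2 replicate 1 (adjusted p = 0.0172). Mitochondrially encoded genes took 59.2% and 36.1% of the P3 counts, and all 3 calls held when these genes were left out.

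In the P2 libraries, where Hopx, Bmi1, Lrig1 and Msi1 had their highest means, the marker lists of secretory cells were also at their highest. The 12 Paneth genes summed to 579554 and 420768 CPM in P2 and to 1221 to 66348 CPM in the other 8 libraries; the 11 goblet genes to 54389 and 122203 CPM against 1967 to 10213 CPM; the 11 tuft genes found to 865 and 1507 CPM against 34.3 to 295 CPM; and the 14 enteroendocrine genes to 5540 and 13502 CPM against 25.9 to 754 CPM. No gene of these lists was at 0 in both P2 libraries. Between P2 and P1, 6 of 12 Paneth, 9 of 11 goblet, 4 of 10 tested tuft and 9 of 14 enteroendocrine genes were higher in P2 and 0 lower. In this pair 13.9% of all tested genes were higher and 15.2% lower. The 13 proliferation genes summed to 148 and 117 CPM in P2 and to 427 to 2370 CPM elsewhere. The part of the secretory cells or of proliferation in the levels of the markers was not tested.

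**Figure D3:**
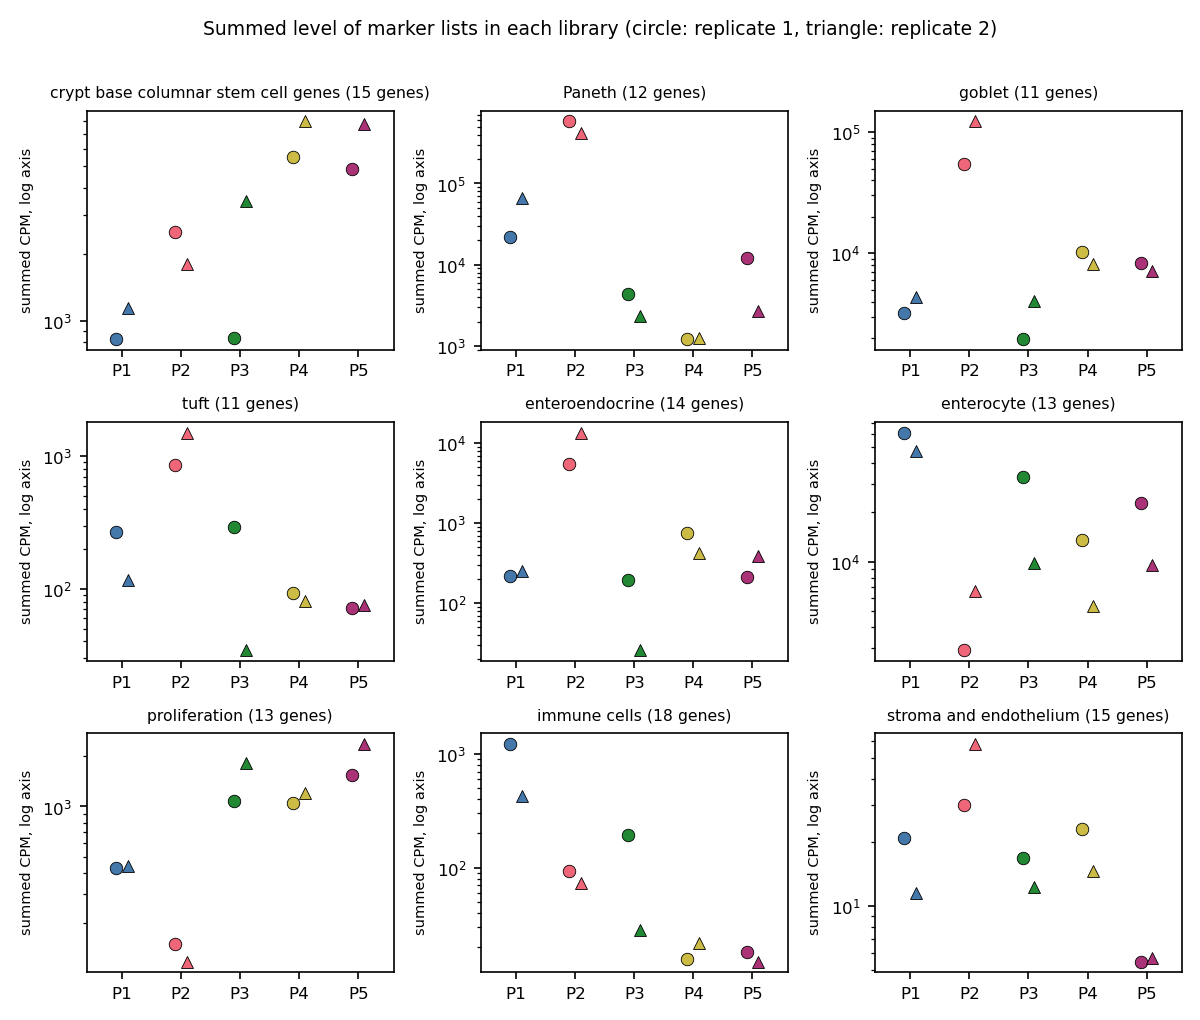
Summed CPM of 9 marker lists in each library (log axes that differ between panels; circle replicate 1, triangle replicate 2). The Paneth, goblet, tuft and enteroendocrine lists were highest in both P2 libraries, the proliferation list was lowest there, and the crypt base columnar list was highest in the P4 and P5 libraries.

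P2 was set against P4, whose gate differs from that of P2 in the OSCAR ratio, and against P5, whose gate also differs in EF1a. The libraries of P2 and P4 also differed in cell type genes. The Paneth list summed to 579554 and 420768 CPM in P2 and to 1221 and 1246 CPM in P4. The proliferation list summed to 148 and 117 CPM in P2 and to 1048 and 1201 CPM in P4. In both comparisons edgeR called 0 of 7 markers, where 14.3% and 15.9% of all tested genes were called. An unadjusted p under 0.05 in edgeR was reached by 4 and 3 markers and by 5559 and 5661 of 13708 genes. DESeq2 called 2 markers in each, Hopx (1.41 and 1.48, adjusted p = 0.00513 and 0.00305) and Krt19 (-1.74 and -1.50, adjusted p = 9.94e-06 and 0.000156). Of all 13708 genes DESeq2 called 3192 and 3376 in these pairs. Bmi1, Lrig1 and Msi1 were 0.79, 0.25 and 0.72 higher in P2 than in P4 on the log2 scale, none called. These directions held with TMM and with the size factors of DESeq2 and turned with library totals, to -0.35, -0.89 and -0.42, where the median over all genes was -1.07.

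P1 was lower in Lrig1 and Msi1 than P4 and P5. Between P1 and P4, which are both EF1a low and differ in the OSCAR ratio, 2 of 7 markers were lower in P1 and 0 higher, against 9.44% lower and 14% higher of all tested genes (23.5% called). Between P1 and P5 the counts were the same, against 8.58% lower and 11.2% higher (19.8% called). Hopx was -0.54 (SE 0.37) and -0.49 (SE 0.37) in these pairs and Bmi1 0.20 (SE 0.29) and 0.06 (SE 0.29), none called. Lrig1 and Msi1 lost the call in P1 against P4 without either P4 library (adjusted p = 0.0111 and 0.0151 for both genes), when no gene of all tested was called, and Lrig1 also without P1 replicate 1 (adjusted p = 0.0113). In P1 against P5 they lost it without P1 replicate 1 (-2.16 and -2.40) or P5 replicate 2 (-2.22 and -2.67). Calls over all genes also fell in these fits, so the losses are not particular to Lrig1 and Msi1. The P1 libraries also stood apart in other cell types: 7 of 14 tested immune genes and 4 of 13 enterocyte genes were higher in P1 than in P4, and 9 and 2 were higher than in P5, with 0 lower. The enterocyte list summed to 61069 and 47608 CPM in P1 and to 2903 to 32778 CPM in the other 8. Their part in the low Lrig1 and Msi1 was not tested.

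Between P1 and P3, which differ in EF1a at low OSCAR, Lrig1 was the 1 of 7 markers called by edgeR, lower in P1, where 15.6% of all tested genes were called, 8.02% lower and 7.59% higher. The call was lost without P1 replicate 1, P1 replicate 2 or P3 replicate 2 (-1.41, -1.98 and -1.32) and with library totals (-1.37, adjusted p = 0.0575). Calls over all genes also fell in the fits without 1 of these libraries, so those losses are not particular to Lrig1. Krt19, at -1.74, was called here by DESeq2 (-1.67, adjusted p = 2.31e-05) and by edgeR without the filter or without mitochondrially encoded genes (adjusted p = 5.36e-05 and 0.00802). Between P5 and P4, which differ in EF1a at medium OSCAR, edgeR called 0 of 7 markers and 0% of all tested genes. An unadjusted p under 0.05 in edgeR was reached by 0 markers and by 351 of 13708 genes. DESeq2 called 0 markers and 29 of 13708 genes. The 7 differences ran from -0.69 (Mex3a, SE 0.75) to 0.62 (Clu, SE 0.98). The EF1a effect itself was compared between low and medium OSCAR, and edgeR called 0 of 7 markers, against 0.817% of all tested genes. In edgeR 3 markers and 4653 of 13708 genes had an unadjusted p under 0.05. DESeq2 called 1 marker, Krt19 (1.90, adjusted p = 0.00147), and 1978 of 13708 genes.

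P3 was compared with P4 and with P5. edgeR called 0 of 7 markers in both comparisons, with 0% of all tested genes called. An unadjusted p under 0.05 in edgeR was reached by 2 and 3 markers and by 2080 and 1587 of 13708 genes. Msi1 was -1.95 (SE 0.42, adjusted p = 0.154) in P3 minus P4 and -1.68 (SE 0.42, adjusted p = 0.332) in P3 minus P5. DESeq2 called Msi1 in P3 against P4 (-2.01, adjusted p = 0.0033) and 0 markers in P3 against P5. Of all 13708 genes it called 121 and 43 in these pairs.

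The likeness of the markers over the 10 libraries was measured as the root mean square difference of log2 CPM after centring each gene, so that 0 is an identical profile. Of the 21 pairs among the 7 tested markers, Bmi1 and Hopx were closest (0.47), followed by Lrig1 and Msi1 (0.65), and Krt19 and Msi1 were farthest apart (1.90). Ranks of the nearest marker among all genes varied. Seen from Lrig1, Msi1 ranked 905 among 13707 other genes, and seen from Bmi1, Hopx ranked 1520. Seen from Msi1, Lrig1 ranked 30, seen from Hopx, Bmi1 ranked 259, and seen from Mex3a, Clu ranked 380. Seen from Krt19, whose nearest marker was Bmi1 at 1.34, 67.3% of genes were nearer. The measure is not scaled to the range of a gene, so a gene that varies little lies near many others. Bmi1 varied least of the 7 (SD of log2 CPM 0.48, against 0.96 for Krt19) and had the lowest median distance to all genes (0.82). Krt19 and Bmi1 had the populations in reverse order, so a small distance to Bmi1 does not show a shared pattern. These values describe 10 libraries that share populations and depth.

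The gene nearest to each marker was in no case another marker. Acly, which makes cytosolic acetyl-CoA from citrate, lay 0.13 from Hopx and Golt1b 0.21. Ift172 lay 0.12 and Dennd4c 0.13 from Bmi1, and Cldn2, a claudin, 0.21 and Epn3 0.23 from Lrig1. For Krt19 the nearest were Atp10b (0.19) and Slc30a1 (0.23). Msi1 had 6720401G13Rik (0.36) and Soat1 (0.38), Clu had Fhdc1 (0.44) and Gm13477 (0.49), and Mex3a had Cttnbp2 (0.62) and Zbtb12 (0.63). Acly was at 265 ± 23.2 CPM (SD, n = 2) in P2 and 69.5 ± 0.153 CPM in P1, beside 146 ± 27.5 and 38.7 ± 3.55 CPM for Hopx.

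The paralogs of the markers gave calls in both directions. Of 29 listed, 24 were tested. Of these, 7 were higher and 4 lower in P2 than in P1, and 7 were higher and 1 lower in P2 than in P3. Among all tested genes 13.9% were higher and 15.2% lower in P2 than in P1. The shares against P3 were 10.5% and 10.6%. Lrig3 was at 2.93 and 3.46 RPKM in P2 and 4.42 and 2.51 RPKM in P1, and at 10.2 to 18.8 RPKM in the 6 other libraries. It was lower in P2 than in P4 (-1.72 on the log2 scale, SE 0.35, adjusted p = 0.00656), in a pair where Lrig1 was at 0.25. Lrig2 was lower in P1 than in P3 (-1.76, SE 0.29, adjusted p = 0.00293), as Lrig1 was. Msi2 stayed between 1.97 and 4.92 RPKM, a narrower range than that of Msi1. Among keratins, Krt18 was higher in P2 than in P3 (2.19, SE 0.27, adjusted p = 0.000472), where Krt19 was lower, and Krt20, a keratin of mature enterocytes, was at 3325 and 2954 RPKM in P1 against 111 to 621 RPKM in the other 8. Ly6e was higher in P2 than in P4 (2.29, SE 0.28, adjusted p = 0.000832), while Ly6g and Ly6i, 2 of the genes near Ly6a, were at 0 throughout. Anxa2 and Anxa4 were abundant, at 42.3 to 668 and 122 to 570 RPKM, in the same libraries that held no Anxa1 read.

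**Figure D4:**
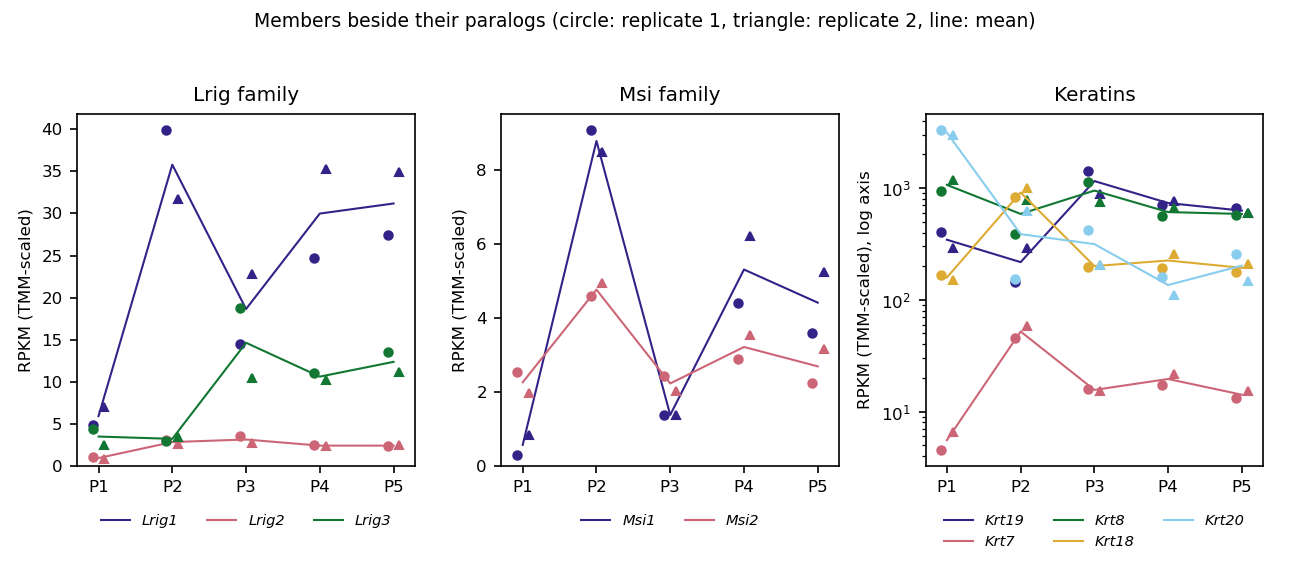
RPKM of Lrig, Musashi and keratin genes over the populations (linear axes from 0 for the first 2 panels, log axis for keratins; circle replicate 1, triangle replicate 2, line their mean, n = 2). Lrig1 and Lrig3 parted in P2, Msi1 spanned 0.291 to 9.07 RPKM where Msi2 stayed within 1.97 to 4.92 RPKM, and Krt19 and Krt18 took opposite directions between P2 and P3.

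Polycomb repressive complex 1 has further subunits that work with Bmi1. Of the 12 genes listed for it, Cbx7, which reads histone H3 lysine 27 methylation, and Phc3 were higher in P2 than in P1 (2.06, SE 0.33, adjusted p = 0.00131 and 1.78, SE 0.23, adjusted p = 0.000564) and higher than in P3 (1.63 and 1.72), and 0 were lower in these pairs. These 2 of 12 stand beside 13.9% of all tested genes higher in P2 than in P1 and 10.5% higher than in P3. Bmi1 was called by edgeR in neither pair and by DESeq2 in P2 against P3. Commd3, which is the neighbour of Bmi1 in the genome and no subunit, was higher in P1 than in P4 (0.83, SE 0.19, adjusted p = 0.00792).

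The regenerative and fetal-like genes listed beside Clu, Ly6a and Anxa1 were, where called, mostly higher in P2. Of 30, 20 were tested, 6 never exceeded 3 reads in a library, and Spp1 and Ankrd1 were among those at 0 in all 10. Against P1, 7 were higher in P2 and 1, Anxa2, was lower (-2.80, SE 0.60, adjusted p = 0.00495). Against P3, 6 were higher and 0 lower, and against P5, 4 were higher and 0 lower. Against P4, 4 were higher in P2: S100a6 (4.48, SE 0.57), Cldn4 (4.15, SE 0.37), Ly6e (2.29, SE 0.28) and Krt7 (1.41, SE 0.24), with a median of 1.24 over the 20 beside 0.05 over all genes. S100a6 is a calcium-binding protein and Cldn4 a tight junction claudin. Krt7, Anxa2, Anxa3, Anxa5 and Ly6e, among others, are also in the list of paralogs, so their calls count in both lists. Among all tested genes 13.9% were higher and 15.2% lower in P2 than in P1, and 10.5% and 10.6% against P3. Against P4 and P5, 1099 and 1199 of 13708 genes were higher in P2, and 14.3% and 15.9% were called in either direction. The sum of the 30 genes was highest in P1, at 2840 and 2675 CPM, beside 1343 and 2154 CPM in P2. Clu itself was not called in these pairs, and the part of the secretory cells of P2 in these genes was not tested.

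The crypt base columnar genes gave the reference for cycling stem cells. Of 15, 12 were lower in P1 than in P4 and 10 lower than in P5, among them Lgr5 (-3.37, SE 0.31, adjusted p = 0.000899 and -3.12, SE 0.31, adjusted p = 0.00134), the receptor for R-spondins, and 0 were higher. In P2 against P4, 1 was higher, Sox9 (1.36, SE 0.28, adjusted p = 0.00708), and 2 were lower, Cdca7 (-2.73, SE 0.43, adjusted p = 0.00234) and Ascl2 (-2.61, SE 0.51, adjusted p = 0.00553). Among all tested genes 9.44% were lower in P1 than in P4 and 8.58% lower than in P5. In P2 against P4, 14.3% of all tested genes were called, 1099 of 13708 higher and 864 lower. Lgr5 was at 7.82 and 7.89 RPKM in P2, 9.19 and 11.2 RPKM in P4, 6.99 and 10.1 RPKM in P5, 1.02 and 0.943 RPKM in P1, and 0.412 and 0.906 RPKM in P3. Lrig1 and Msi1 were lower in P1 than in P4 and P5 beside these genes, and Mex3a had its 2 highest libraries in P4, where the list summed to 5508 and 7979 CPM.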

How the data were processed

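Poly(A) RNA-seq counts were analysed from 10 libraries, 2 for each of 5 sorted crypt populations. The deposited values are raw counts per gene: per the study's methods the authors aligned reads to mm9 with TopHat2 2.1.0 and counted exons with HTSeq 0.11.2, without strand and in intersection-nonempty mode, and multiply aligned reads were not counted. The 6 rows that name no gene, 18.7% to 44.3% of all rows' counts per library, were left out of library sizes, as were 204 ribosomal RNA names. Depth was 3857612 to 6485823 counts per library. Genes were filtered with filterByExpr (minimum count 10), which left 13708, and tested with edgeR 4.0.16 (TMM, quasi-likelihood, 5 population means over all 10 libraries) with Benjamini-Hochberg adjustment over all tested genes at 0.01, the study's threshold. With 2 libraries a population, described by the study as biological replicates, the spread of a gene has 5 residual degrees of freedom. The quasi-likelihood fit moderates this spread with information from all tested genes, and the p-values depend on that as well. The script was tested on simulated data. DESeq2 1.42.0, other scalings and filters, a replicate block and leaving out each library were alternatives; library totals without TMM were added after seeing the data. RPKM and gene positions used GENCODE M1 on NCBIM37 (33643 of 35006 names matched), and promoter sequences came from that genome. Names given are the 9 markers, their paralogs, up to 4 called genes a list and comparison with the largest change, and the 2 nearest genes of each marker. The markers, gene lists and tests were chosen with earlier results of these data known. Same-numbered libraries deviated from their population means with correlations of -0.0597 to 0.554 over 10 pairs of populations, 9 of them above 0.1; P2 and P3 were not, and since the rule asked for every pair above 0.1 the numbers were not taken to pair libraries. The sequence of 1 further promoter and 1 gene of the lists are not reported here.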

Additional observations from a re-analysis of the deposited data

How the results depend on the processing

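The replicate block changed no count of markers called: 3, 3, 0, 0, 1, 2, 2, 0, 0 and 0 in P2 vs P1, P2 vs P3, P2 vs P4, P2 vs P5, P1 vs P3, P1 vs P4, P1 vs P5, P3 vs P4, P3 vs P5 and P5 vs P4, and 4 for any difference; over all genes it called 4519 in P2 vs P1 where 3985 were called without it. In 9 of 10 pairs of populations the same-numbered deviations correlated above 0.1. Without the filter on low counts, 5 markers were called in P2 vs P3, 3 in P2 vs P4, 2 in P2 vs P5, 2 in P1 vs P3, 4 in P1 vs P4, 2 in P3 vs P4, 1 in P3 vs P5 and 2 in the difference of the EF1a effect between low and medium OSCAR. Of the 21998 genes tested without the filter, 4443, 3498, 3727, 4005, 5024, 541, 303 and 2299 were called, in the same order. DESeq2 called 2, 2, 2, 4, 1 and 1 markers in P2 vs P4, P2 vs P5, P1 vs P3, P1 vs P4, P3 vs P4 and that difference. Of 13708 genes it called 3192, 3376, 3558, 4526, 121 and 1978, in the same order. At an adjusted p of 0.05 in edgeR the counts of markers were 5 in P2 vs P3 and 2 in P2 vs P4, P2 vs P5, P1 vs P3 and that difference. At 0.05 edgeR called 5115, 3986, 4217, 4656 and 2375 of 13708 genes, in the same order. Size factors of DESeq2 gave 1 marker in P2 vs P4, beside 2001 of 13708 genes. Without mitochondrially encoded genes there were 1 in P2 vs P4 and 2 in P1 vs P3, beside 1986 and 2247 of 13887 genes. Library totals gave 1 in P2 vs P4 and P2 vs P5 and 0 in P1 vs P3, beside 3125, 2948 and 1169 of 13708 genes.

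Leaving out 1 library gave 1 to 3 markers in P2 vs P3, 0 to 2 in P2 vs P4, 0 to 1 in P2 vs P5, 0 to 2 in P1 vs P3, 0 to 3 in P1 vs P4, 0 to 2 in P1 vs P5 and 1 to 4 for any difference; a population left with 1 library is assumed to vary like the others, and fewer libraries enter each fit.

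No called difference reversed. With library totals, reversed log2 differences were Bmi1 -0.35, Lrig1 -0.89 and Msi1 -0.42 in P2 vs P4; Bmi1 -0.39, Lrig1 -0.84 and Msi1 -0.0487 in P2 vs P5; Bmi1 -0.49 in P1 vs P4 and -0.53 in P1 vs P5; Krt19 -0.55 in P3 vs P4 and -0.21 in P3 vs P5; and Lrig1 -0.0485 in P5 vs P4. With library totals the median over all genes lay between -1.07 (P2 vs P4) and 0.41 (P1 vs P3); in P2 vs P3 it was -0.07, beside -0.01 with TMM. Without mitochondrially encoded genes, Hopx was -0.0424 in P1 vs P3 and Bmi1 -0.00172 in P1 vs P4 and -0.10 in P1 vs P5. In the difference of the EF1a effect, Hopx was -0.0261 with size factors, -0.00704 without the filter, -0.0421 with DESeq2, -0.0333 with the replicate block and -0.11 with library totals.

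Leave-one-out ranges that crossed 0 were, for Clu, -1.40 to 0.85 in P2 vs P1, -1.88 to 0.31 in P2 vs P4, -1.75 to 0.75 in P1 vs P4, -2.36 to 0.0579 in P1 vs P5 and -0.51 to 1.82 in P5 vs P4; for Mex3a, -0.79 to 1.18 in P2 vs P1, -0.46 to 6.91 in P2 vs P3, -0.33 to 6.36 in P1 vs P3 and -5.66 to 1.10 in the difference of the EF1a effect, of which the ends beyond 5 set a population against the P3 library with 0 reads; for Lrig1, -0.00417 to 0.52 in P2 vs P4, -0.00257 to 0.36 in P2 vs P5 and -0.18 to 0.35 in P5 vs P4; for Hopx, -0.48 to 0.96 in P1 vs P3, -0.20 to 0.10 in P5 vs P4 and -0.90 to 0.54 in the difference of the EF1a effect; for Bmi1, -0.0496 to 0.15 in P1 vs P5; and for Msi1, -0.56 to 0.0139 in P5 vs P4. The cause of these changes was not tested.

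Over all genes, the count in P2 vs P4 was 3192 with DESeq2, 3498 without the filter and 3125 with library totals, against 1963.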

Other observations

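Clu was higher in replicate 2 than in replicate 1 in each of the 5 populations. In the fit with a replicate block, replicate 2 minus replicate 1 was 1.80 on the log2 scale for Clu (SE 0.56, unadjusted p = 0.0107, adjusted p = 0.264 with edgeR), where 44 of 13708 genes, 0.321%, passed the threshold for the replicate number; this relation was chosen after the values of Clu were seen. The EF1a effect at low OSCAR (P3 minus P1) exceeded that at medium OSCAR (P5 minus P4) by 1.61 for Lrig1 (SE 0.44, adjusted p = 0.0358) and 1.97 for Krt19 (SE 0.58, adjusted p = 0.0465), and neither passed in edgeR. For Msi1 the same difference was 1.55 (SE 0.60, adjusted p = 0.103).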
